A study of Homo sapiens with 6 samples.

Results

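The EGF receptor family and its ligands were examined through 10 genes: the receptors EGFR, ERBB2, ERBB3 and ERBB4 and the ligands HBEGF, AREG, EREG, TGFA, BTC and NRG1. Members were the probe sets whose platform annotation names exactly 1 of these genes. The rule found 39 probe sets of 9 genes, out of 49293 probe sets on the array. AREG, the gene of amphiregulin, was not analysed here.

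The 4 receptors are transmembrane proteins that pair with each other when a ligand binds. EGFR binds HBEGF, TGFA, AREG, EREG and BTC, while ERBB3 and ERBB4 bind neuregulins such as NRG1. ERBB2 has no known ligand and acts as the favoured partner of the others, and ERBB3 has very weak kinase activity. The ligands are made as membrane-anchored precursors and released by ADAM proteases. The paired receptors signal through RAS to the ERK kinases and through PI3 kinase to AKT, and EGFR is abundant in many squamous lung carcinomas.

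Levels were compared between 3 fusion tumors and 3 vector tumors. Fusion tumors grew from CRL-5889 cells transfected with TRA2B-DNAH5, and vector tumors from cells of the same line transfected with vector. CRL-5889 is an established lung squamous carcinoma line of human origin. All 6 tumors were xenografts in nude mice, which lack mature T cells but keep other host cells, and were sampled at 4 weeks. Each tumor gave 1 Affymetrix array. The labels used here name neither the promoter of the construct, nor whether the cells were a clone or a pool, nor which mouse bore which tumor. Differences between the 2 transfected cell populations therefore cannot be told apart from the fusion. The labels call the tumors biological replicates, and p-values measure the spread between them. The number of arrays limits the precision.

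Array medians lay between 6.34 and 6.39 on the log2 scale in fusion tumors and between 6.27 and 6.37 in vector tumors. Vector tumor 1 stood apart from the other 5 arrays on the first principal component (score 30.1, against -8.58 to -3.68). Values without it are also given for several results that change. Of the squamous lineage markers, KRT5 averaged 5.06 ± 0.14 in the fusion group and 5.19 ± 0.20 in the vector group (SD, n = 3 each), close to the dim filter of 4.94, and DSG3 and TRIM29 lay below it, whereas SOX2 averaged 8.82 ± 0.11 in the fusion group and 9.65 ± 0.43 in the vector group. The squamous markers KRT15, KRT14, PKP1 and SERPINB5 were above the filter, with KRT15 at 6.15 in the fusion group and 5.89 in the vector group. The epithelial markers EPCAM and CDH1 were below the filter, which was applied to the mean over all tumors. The epithelial keratins KRT18, KRT8 and KRT19 were above it. They averaged 8.55, 5.29 and 5.24 in the fusion group and 8.57, 5.28 and 5.02 in the vector group.

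Of the members, the gene of the receptor EGFR had the largest difference at gene level. Its most abundant probe set, 11725104_a_at, had log2 levels of 10.27, 9.74 and 9.70 in fusion tumors 1 to 3, against 9.38, 9.56 and 9.22 in vector tumors 1 to 3. All 3 fusion tumors were thus above all 3 vector tumors, with fusion tumor 1 well above the other two. The means were 9.90 ± 0.32 in the fusion group and 9.39 ± 0.17 in the vector group (SD, n = 3 each), a 1.43-fold difference. The log2 fold change was 0.52 (SE 0.16, 95% confidence interval 0.14 to 0.89). It did not pass by limma after Benjamini-Hochberg adjustment over 13694 genes (adjusted p = 0.617, unadjusted 0.0129), and the exact two-sided permutation p was 0.1, the smallest that 3 against 3 tumors can give. Without fusion tumor 1 the log2 fold change was 0.33 (limma adjusted p = 0.978), and without vector tumor 1 it was 0.51 (adjusted p = 0.442).

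The other EGFR probe sets separated the tumors in a similar way but ordered the fusion tumors differently. Of 8 EGFR probe sets, 6 were at or above the dim filter, and all 6 had a log2 fold change above 0, from 0.23 to 0.65, while 52.8% of all probe sets were above 0. These sets read 1 transcript pool and are not replicates of each other. In 5 of the 6 the groups did not overlap, as in 10.8% of all probe sets. Probe set 11751983_a_at had 8.86, 8.44 and 8.38 in fusion tumors, against 7.81, 8.14 and 7.78 in vector tumors (log2 fold change 0.65, SE 0.16). It had the smallest p of any member probe set, and did not pass over all 49293 probe sets (limma adjusted p = 0.516). In this set and in 11725104_a_at fusion tumor 1 was the highest of the fusion tumors. In 11742247_a_at it was the lowest, with 7.05, against 7.31 and 7.45 in fusion tumors 2 and 3 and 6.44, 6.90 and 6.75 in vector tumors 1 to 3 (log2 fold change 0.57, SE 0.15, limma adjusted p = 0.606). It was also the lowest fusion tumor in 11725103_s_at, 11725102_at and 11733760_a_at. The annotation used here does not say which EGFR transcripts each probe set reads. Both dim EGFR sets had overlapping groups, with log2 fold changes of 0.025 and -0.098. When all 8 were averaged, the log2 fold change was 0.31 (limma adjusted p = 0.478).

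**Figure D1:**
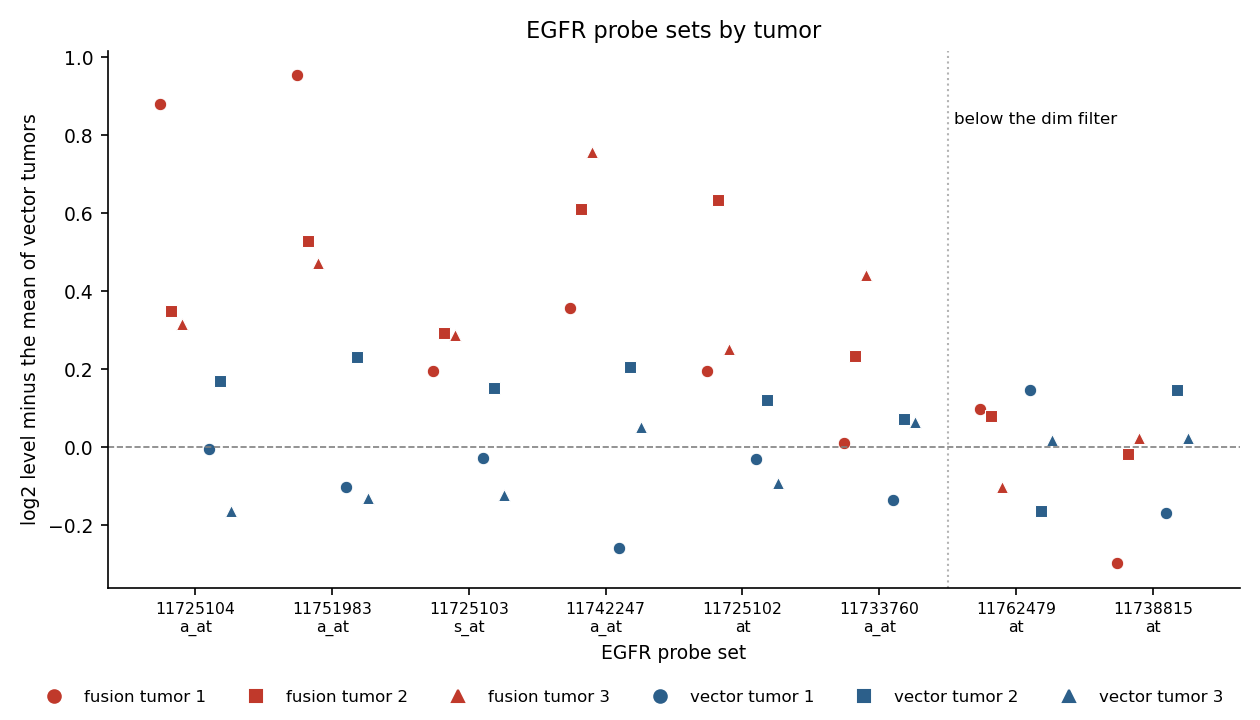
Log2 level of each EGFR probe set (x axis, ordered by mean level) in each tumor, minus the mean of the 3 vector tumors for that set (y axis). Red marks are fusion tumors and blue marks vector tumors, with 1 marker shape for each replicate number. In the first 5 sets all fusion tumors lie above all vector tumors, and fusion tumor 1 is the highest fusion tumor in the first 2 and the lowest in the next 4.

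The mean level of markers of fibroblasts, which also carry EGFR, separated the groups in the same direction. Of 8 fibroblast markers, 6 were above the dim filter and tested. Of these 6, 4 had an unadjusted limma p below 0.05, where 5.89% of all genes did. After adjustment 0 passed, where 0.073% of all genes did. The mean level over the 8 was 6.44, 6.41 and 6.32 in fusion tumors 1 to 3, against 6.02, 6.19 and 5.98 in vector tumors 1 to 3, with no overlap. The protease FAP and the collagen genes COL1A1, COL1A2 and COL3A1 had log2 fold changes of 0.91, 0.65, 0.24 and 0.20. THY1, the brightest of these markers, averaged 10.92 in the fusion group and 10.57 in the vector group (log2 fold change 0.36). LUM and DCN, proteoglycans of fibroblast matrix, were below the dim filter in the mean. PDGFRB, a receptor of fibroblasts and pericytes, averaged 5.67 ± 0.049 in the fusion group and 5.65 ± 0.14 in the vector group (SD, n = 3 each). The mean of 7 macrophage and leukocyte markers was 5.85, 5.88 and 5.81 in fusion tumors, against 5.79, 5.67 and 5.73 in vector tumors. Its members differed in direction: the macrophage glycoprotein CD68 had a log2 fold change of 0.80 (limma adjusted p = 0.112) and the receptor CSF1R 0.17, whereas ITGAM had 0.020, AIF1 -0.039 and the adaptor TYROBP -0.13, and PTPRC and CD163 were below the filter in the mean. Adipocyte markers separated the groups the other way. The mean of 5 was 5.50, 5.54 and 5.51 in fusion tumors, against 5.68, 5.72 and 5.78 in vector tumors. Of these 5, FABP4 and LEP were below the filter in the mean, although LEP averaged 5.06 in the vector group and 4.81 in the fusion group. The other 3 were tested. Of them 2 (PLIN1, -0.33, and CIDEC, -0.26) had an unadjusted limma p below 0.05, where 5.89% of all genes did, and 0 passed after adjustment. Whether these marker signals came from tumor cells or from host cells was not tested, nor was the part of such cells in the EGFR difference. The host cells are mouse cells, and how far these probe sets read mouse transcripts is not known here. In bulk RNA more cells of a type and more RNA per cell cannot be told apart.

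The promoter windows of EGFR and HBEGF, the 2 members with the largest log2 fold changes at gene level, are shown to place both genes. Each window runs from 250 bases before to 50 bases after a RefSeq start in build GRCh38.p14. The upstream EGFR start has the window chr7:55018767-55019066 on the plus strand, a start further along the gene has chr7:55109589-55109888 on the plus strand, and HBEGF has chr5:140346554-140346853 on the minus strand. Capitals mark matches on either strand to the AP-1 motif TGANTCA or to the GC box GGGCGG.
EGFR, upstream start: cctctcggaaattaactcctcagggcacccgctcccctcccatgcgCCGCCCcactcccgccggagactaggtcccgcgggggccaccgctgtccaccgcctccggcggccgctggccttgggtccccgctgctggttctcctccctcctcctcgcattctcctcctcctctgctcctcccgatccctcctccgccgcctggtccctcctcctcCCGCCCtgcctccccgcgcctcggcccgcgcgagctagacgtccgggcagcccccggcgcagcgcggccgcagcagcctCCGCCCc
EGFR, downstream start: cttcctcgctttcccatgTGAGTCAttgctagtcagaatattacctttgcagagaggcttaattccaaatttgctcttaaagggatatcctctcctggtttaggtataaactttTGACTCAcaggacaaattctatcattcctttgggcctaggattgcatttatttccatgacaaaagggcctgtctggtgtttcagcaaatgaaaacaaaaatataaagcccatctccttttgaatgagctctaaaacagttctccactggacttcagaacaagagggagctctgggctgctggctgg
HBEGF: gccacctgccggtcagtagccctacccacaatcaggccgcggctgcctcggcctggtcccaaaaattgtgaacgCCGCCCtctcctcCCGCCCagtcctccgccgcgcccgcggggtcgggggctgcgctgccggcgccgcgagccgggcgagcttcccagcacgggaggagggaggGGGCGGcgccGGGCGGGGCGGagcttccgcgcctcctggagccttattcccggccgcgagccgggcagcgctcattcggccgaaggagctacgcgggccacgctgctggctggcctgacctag
The upstream EGFR window was 75.3% G and C with 3 GC box matches and 0 AP-1 matches, and the HBEGF window was 75.0% G and C with 5 GC box matches, some of them overlapping, and 0 AP-1 matches. The downstream EGFR window was 42.0% G and C, with 2 AP-1 matches, TGAGTCA and TGACTCA, and 0 GC box matches. Among 35116 RefSeq windows of the same length, 7.71% held the AP-1 letters and 45.0% the GC box letters, and the median G and C content was 58.7%. The arrays do not tell which start was used, and a letter match is no evidence of binding.

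ERBB2, the partner receptor without a ligand of its own, was nearly constant over the 6 tumors in its most abundant probe set. That set had 9.37, 9.34 and 9.33 in fusion tumors 1 to 3, against 9.38, 9.39 and 9.42 in vector tumors 1 to 3. The fusion tumors were all below the vector tumors, but by very little. The log2 fold change was -0.051 (SE 0.082, 95% confidence interval -0.24 to 0.14, limma adjusted p = 0.983), an interval that does not reach the 0.52 fitted for EGFR. All 5 ERBB2 probe sets were above the filter, and their log2 fold changes ran from -0.13 to 0.035. Only 0.124% of the genes tested had a smaller spread within groups than the most abundant ERBB2 set. Other ERBB2 sets varied more. Set 11762165_x_at had an SD of 0.25 in both groups, and 11750611_a_at had 0.17 in the fusion group and 0.054 in the vector group.

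ERBB3, the receptor with weak kinase activity, was close to the dim filter and its groups overlapped. Its most abundant probe set had 5.17, 5.52 and 5.22 in fusion tumors, against 5.34, 5.41 and 4.999 in vector tumors (log2 fold change 0.051, SE 0.14, 95% confidence interval -0.27 to 0.37, limma adjusted p = 0.985). The other two ERBB3 sets were below the filter. ERBB4, a neuregulin receptor, had 3 probe sets, all of them below the filter. The highest of these had 4.49, 4.32 and 4.34 in fusion tumors, against 4.43, 4.94 and 4.52 in vector tumors. The 3 ERBB4 sets had log2 fold changes from -0.24 to -0.10, with overlapping groups in each. At such levels the background is not known, and a difference in ERBB4 was not detectable.

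**Figure D2:**
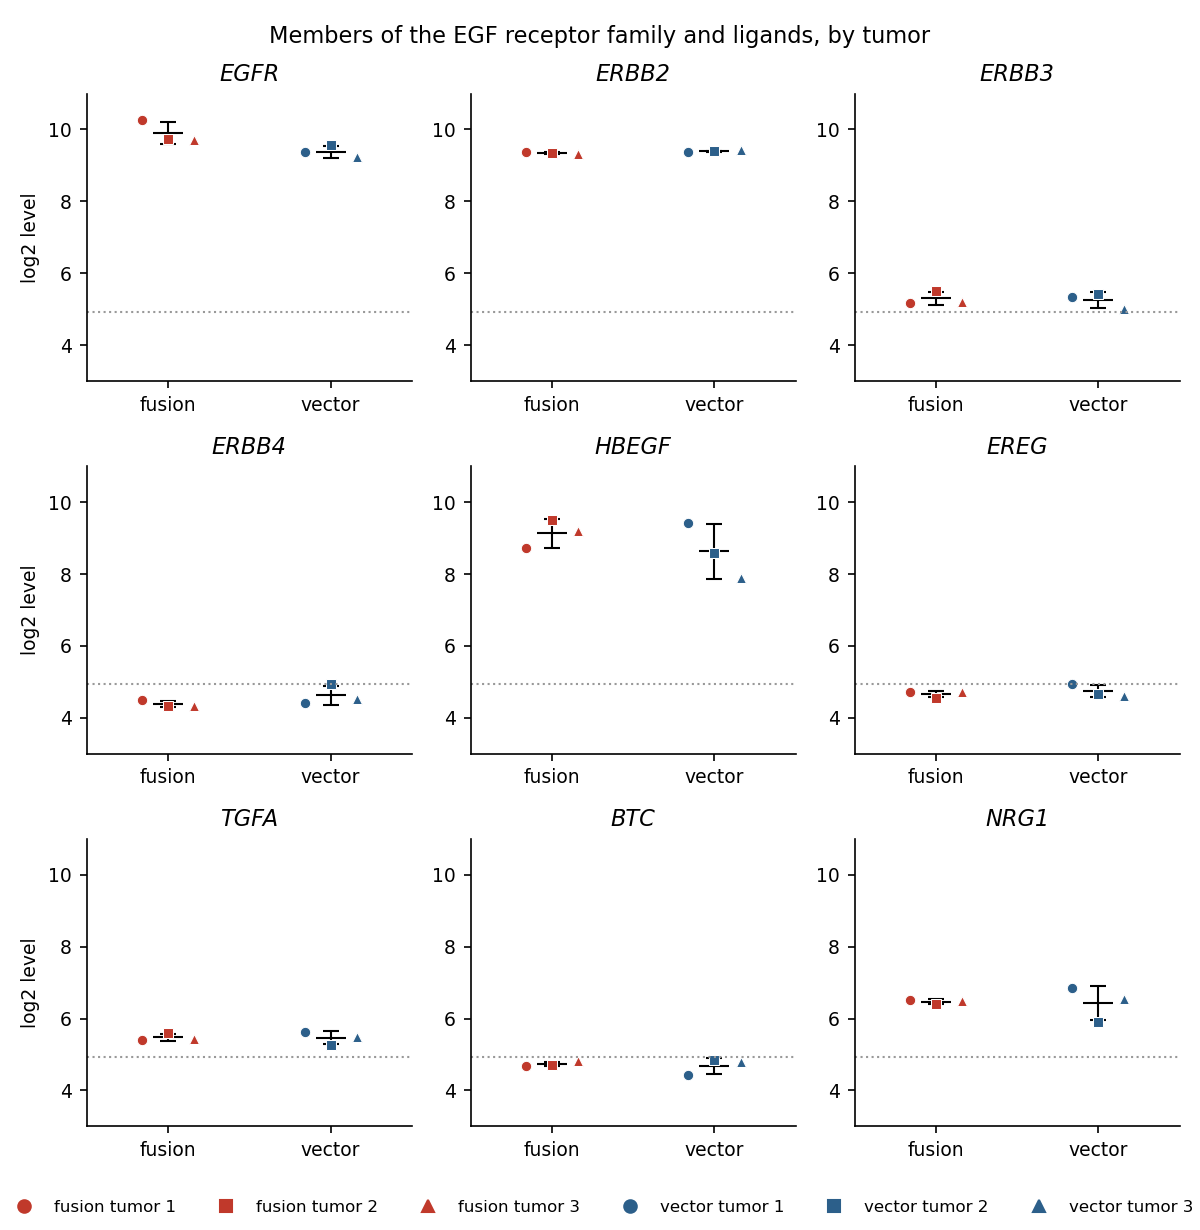
Log2 level (y axis) of the most abundant probe set of each of 9 members in fusion tumors (left) and vector tumors (right) of each panel. Horizontal bars are group means with error bars of 1 SD (n = 3), the dotted line is the dim filter at 4.94, and levels of different genes are not comparable since probe sets differ in brightness. The EGFR groups are apart, ERBB2 is nearly constant, HBEGF varies most within groups, and ERBB4, EREG and BTC lie at or below the filter.

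HBEGF, the heparin-binding ligand of EGFR and ERBB4 and itself a transcript induced by ERK signalling, had a fold nearly as large as EGFR but with a much wider spread. Probe set 11719898_s_at had 8.71, 9.50 and 9.18 in fusion tumors 1 to 3, against 9.41, 8.58 and 7.90 in vector tumors 1 to 3. The groups overlapped, since vector tumor 1 was higher than fusion tumors 1 and 3. The means were 9.13 ± 0.40 in the fusion group and 8.63 ± 0.75 in the vector group (SD, n = 3 each). The log2 fold change was 0.50 (SE 0.35, 95% confidence interval -0.30 to 1.30) and did not pass by limma (adjusted p = 0.962), with an exact permutation p of 0.4. Its spread within groups was larger than that of 99.6% of the genes tested.

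The HBEGF value depended on single vector tumors. Without vector tumor 1 the log2 fold change was 0.89 (limma adjusted p = 0.300, unadjusted 0.00756), and without vector tumor 3 it was 0.14 (adjusted p = 0.942). Without fusion tumor 2 it was 0.32 (adjusted p = 0.999). The second HBEGF probe set, 11755981_a_at, showed the same high and low tumors, with 6.24, 6.69 and 6.46 in fusion tumors, against 6.86, 6.34 and 5.06 in vector tumors. Its log2 fold change was 0.38 (SE 0.38, limma adjusted p = 0.976). Without vector tumor 1 it was 0.76 (adjusted p = 0.697), and without vector tumor 3 it was -0.14.

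The genes whose pattern over the 6 tumors was nearest to that of HBEGF were QPCT, a glutaminyl cyclase, COXFA4L3 and NR4A2, an immediate early nuclear receptor. Likeness was measured as the root mean square difference of log2 levels after centring each gene on its own mean, over 13688 genes. That difference was 0.14 for QPCT, 0.17 for COXFA4L3 and 0.18 for NR4A2, against a root mean square of 0.55 for HBEGF itself. NR4A2 had 8.49, 9.51 and 9.06 in fusion tumors, against 9.59, 8.38 and 7.52 in vector tumors. Vector tumor 1 was thus high and vector tumor 3 low in both genes. The genes were picked for this likeness, so the shared pattern is no separate evidence.

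**Figure D3:**
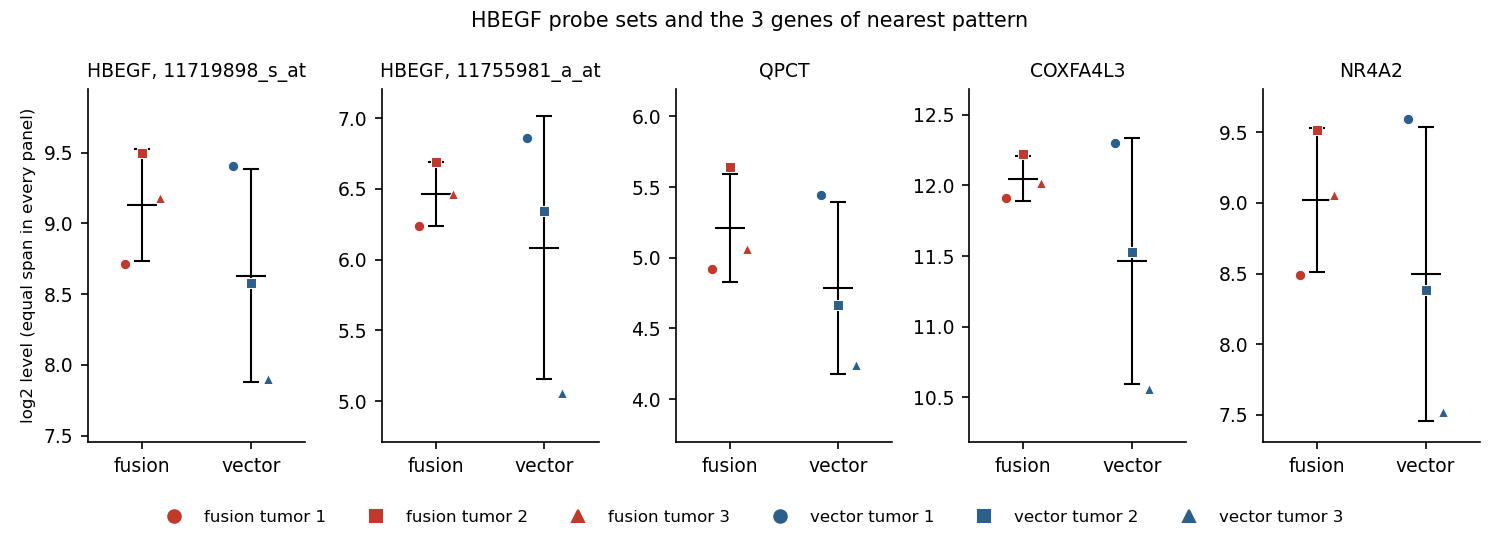
Log2 levels (y axis, spanning the same number of log2 units in each panel) of both HBEGF probe sets and of the 3 genes nearest in pattern, in fusion tumors (left) and vector tumors (right). Bars are means with 1 SD (n = 3). In each panel vector tumor 1 is the highest and vector tumor 3 the lowest of the vector tumors, and fusion tumor 2 is the highest and fusion tumor 1 the lowest of the fusion tumors.

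The genes nearest in pattern to EGFR were RASAL2, a GTPase-activating protein for RAS, FLRT2, an adhesion protein, and PDE9A, a phosphodiesterase of cyclic GMP. Their differences from the EGFR pattern were 0.10, 0.11 and 0.11, against a root mean square of 0.33 for EGFR itself. RASAL2 had 10.19, 9.88 and 9.86 in fusion tumors, against 9.60, 9.57 and 9.37 in vector tumors. As in EGFR, fusion tumor 1 was the highest of the 6 and vector tumor 3 the lowest, a likeness for which RASAL2 was picked.

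TGFA, a ligand of EGFR, was close to the filter and its groups overlapped. Its most abundant probe set had 5.41, 5.59 and 5.44 in fusion tumors, against 5.63, 5.27 and 5.48 in vector tumors (log2 fold change 0.016, SE 0.12, 95% confidence interval -0.25 to 0.28, limma adjusted p = 0.995). The sign of this value turned under other settings. A dimmer TGFA set, 11745160_s_at, had 4.91, 4.75 and 4.74 in fusion tumors, against 4.36, 4.36 and 4.70 in vector tumors. There the fusion tumors were all above the vector tumors, with a log2 fold change of 0.33 (limma adjusted p = 0.892). The 4 TGFA sets ranged from -0.096 to 0.33, so the gene's probe sets do not agree on a difference.

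NRG1, the neuregulin that binds ERBB3 and ERBB4, is transcribed as many isoforms, and its 8 probe sets disagreed. The most abundant had 6.53, 6.40 and 6.49 in fusion tumors, against 6.84, 5.91 and 6.55 in vector tumors. The vector tumors spread on both sides of the fusion tumors. Its log2 fold change was 0.041 (SE 0.21, 95% confidence interval -0.44 to 0.52, limma adjusted p = 0.992). Without vector tumor 1 it was 0.24, and without vector tumor 2 it was -0.22. Of the 8 sets, 3 were above the filter, and the log2 fold changes of all 8 ran from -0.57 to 0.14. The lowest came from 11727215_a_at, with 4.19, 4.14 and 4.35 in fusion tumors, against 5.21, 4.69 and 4.49 in vector tumors (SE 0.17, limma adjusted p = 0.775). All fusion tumors were below all vector tumors in this set, which is below the filter in the mean, and without vector tumor 1 its log2 fold change was -0.36 (adjusted p = 0.501). No transcript was assigned to it here.

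EREG and BTC, the ligands epiregulin and betacellulin, were dim. The 4 EREG probe sets had single values from 3.01 to 4.93 and the 2 BTC probe sets from 3.50 to 4.83, all of them below the filter of 4.94. In EREG set 11732718_at all fusion tumors were above all vector tumors (4.09, 4.17 and 4.52, against 4.07, 3.94 and 4.08), and in BTC set 11740532_s_at all were below (3.50, 3.57 and 3.51, against 3.65, 3.63 and 3.62). Neither set passed by limma (adjusted p = 0.976 for both). EPGN, EREG, AREG and BTC follow each other in this order among the protein-coding genes of chromosome 4 in the RefSeq table. EPGN, the gene of epigen, was likewise below the filter.

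**Figure D4:**
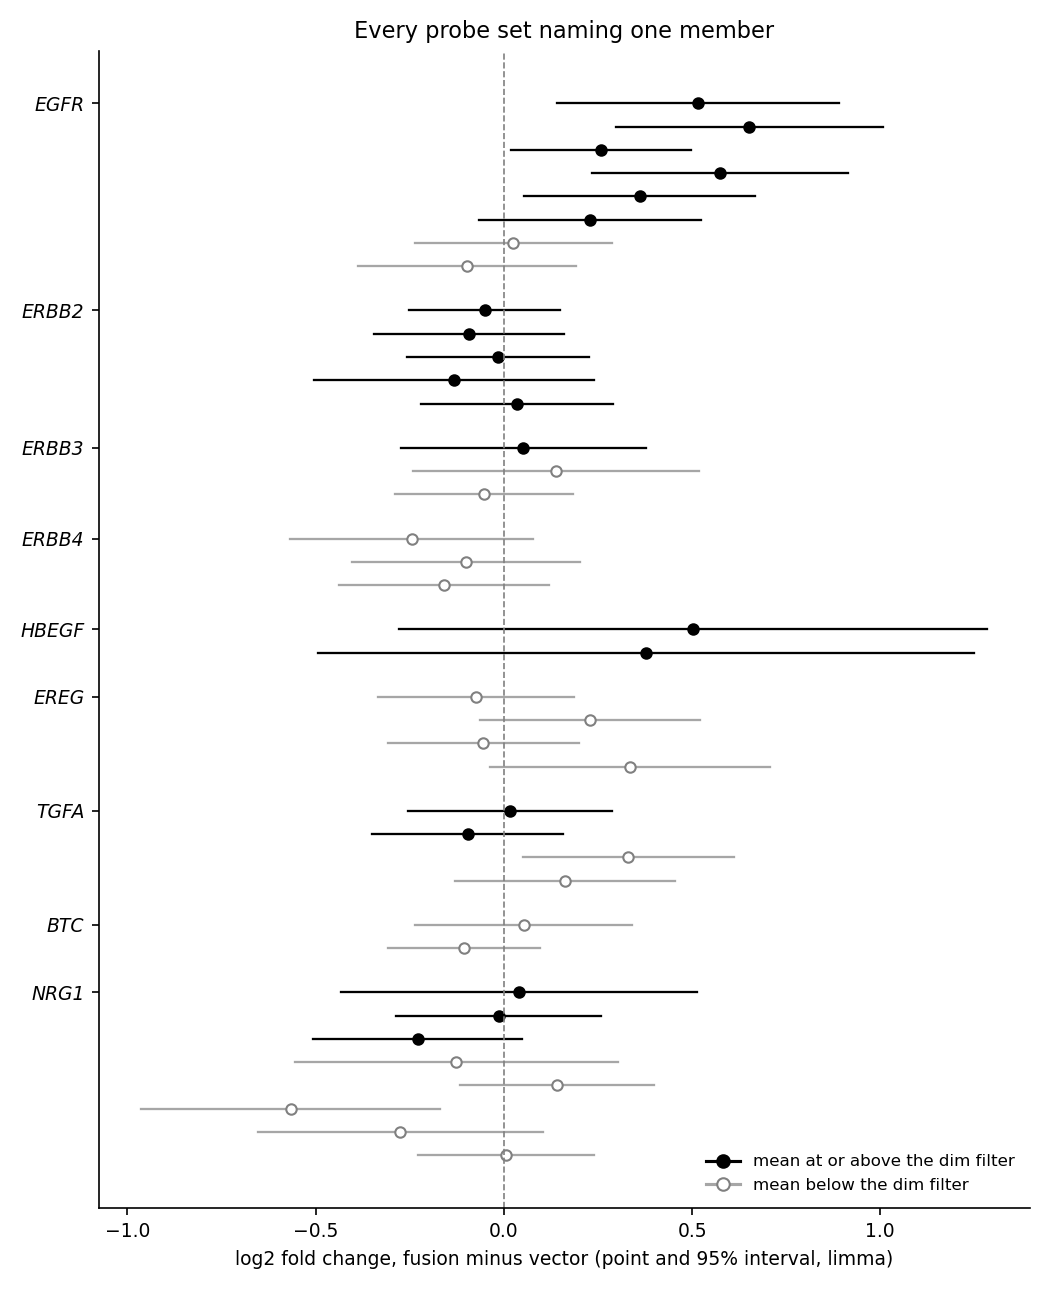
Log2 fold change, fusion minus vector (x axis), with limma's 95% confidence interval for each of 39 probe sets, grouped by gene (y axis) and ordered by mean level within a gene. Filled points are at or above the dim filter and open points below it. The 6 brighter EGFR sets lie right of 0, from 0.23 to 0.65, the HBEGF intervals are the widest, and the other genes scatter around 0.

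Over all members, 0 of 39 probe sets passed by limma at an adjusted p of 0.05, where 0.0101% of all 49293 probe sets passed. At an unadjusted p below 0.05 there were 7, against 5.22% of all probe sets, and 5 of these 7 were EGFR sets, the others being of TGFA and NRG1. The groups did not overlap in 10 of 39, against 10.8% of all probe sets, and again 5 of the 10 were EGFR sets. At gene level 6 members passed the dim filter (EGFR, ERBB2, ERBB3, HBEGF, TGFA and NRG1). Of these 0 passed the test, where 0.073% of all genes passed, and 1, EGFR, had an unadjusted p below 0.05, where 5.89% of all genes did. The groups did not overlap in EGFR and ERBB2, where 11.7% of all genes had no overlap.

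Among 90 other genes of the pathway, 79 had a probe set of their own and 73 were tested. By limma 0 passed after adjustment in either direction, and 5 higher and 1 lower had an unadjusted p below 0.05 (background 3.16% and 2.73% of all genes). Of the 73, 48 had a log2 fold change above 0 and the median was 0.044, beside 50.8% above 0 and a median of 0.0020 over all genes tested. This count was 41 with median centring, 42 with array weights and 42 without vector tumor 1. The share of all genes above 0 is not given here for those settings. The other ligands of the family were mostly below the filter, and NRG2, a neuregulin, had 7.37 ± 0.067 in the fusion group and 7.46 ± 0.059 in the vector group (SD, n = 3 each; log2 fold change -0.094, limma adjusted p = 0.963).

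Among genes of ligand release, 6 of 7 tested had a log2 fold change above 0 (median 0.10), where 50.8% of all genes did. RHBDF2, an inactive rhomboid that carries the protease ADAM17 to the cell surface, had 8.88, 8.81 and 8.93 in fusion tumors, against 8.46, 8.72 and 8.61 in vector tumors. The groups did not overlap, and the log2 fold change of 0.28 (SE 0.099) did not pass (limma adjusted p = 0.703). Its relative RHBDF1 had 0.12. The proteases ADAM10 and ADAM9 had 0.27 and 0.10, both with overlapping groups and with vector tumor 1 the lowest vector tumor. ADAM10 had 7.34, 7.49 and 7.62 in fusion tumors, against 6.58, 7.56 and 7.53 in vector tumors. ADAM17 itself had -0.020, with overlapping groups. How far the count of this list rests on vector tumor 1 was not tested.

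Among receptor inhibitors and ubiquitin ligases, 8 of 13 were above 0 (median 0.053), where 50.8% of all genes were, and 0 passed. ERRFI1, which is induced by EGFR signalling and blocks the EGFR kinase, had 13.00, 13.09 and 13.03 in fusion tumors, against 12.84, 12.80 and 12.77 in vector tumors (log2 fold change 0.24, SE 0.084, limma adjusted p = 0.704). PTPN1, a phosphatase that acts on EGFR, had 0.21, and SOCS3, a cytokine-induced inhibitor, 0.40, both without overlap of the groups. LRIG1, which lowers EGFR at the membrane, had -0.34 with overlapping groups. None of these passed the test.

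The intracellular relays showed smaller values. Adapters at the receptor had a median of 0.017 over 13 genes, led by the phospholipase PLCG1 (log2 fold change 0.19), CRKL (-0.16), IRS2 (0.15) and the phosphatase PTPN11 (0.15). The tested genes of the RAS to ERK cascade had a median of -0.062 over 5 genes and those of the PI3 kinase arm 0.032 over 5 genes, with HRAS at -0.12 and AKT2 at 0.12. Of 13 genes of receptor endocytosis and sorting, TSG101, an ESCRT subunit that sorts receptors for degradation, had the smallest p. It had 9.08, 9.09 and 9.19 in fusion tumors, against 9.58, 9.29 and 9.35 in vector tumors (log2 fold change -0.29, SE 0.11, limma adjusted p = 0.715), without overlap. By limma 0 genes of these lists passed.

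Of 16 transcripts that receptor signalling induces, 13 had a log2 fold change above 0 (median 0.14), where 50.8% of all genes did, and 0 passed by limma. With array weights 10 of the 16 were above 0, and without vector tumor 1 the count was 12. The list of induced transcripts shares most of its genes with an ERK output list whose lean was known when it was chosen, so it is no independent evidence. The ERK phosphatases DUSP5 and DUSP6 had the largest values, 0.82 (limma adjusted p = 0.376) and 0.76 (0.614). A further ERK phosphatase, DUSP4, had -0.14, and the others below 0 were IER3 (-0.17) and VEGFA (-0.16). SPRY2 and SPRY4 were near 0, with 0.029 and 0.012. Without vector tumor 1, DUSP5 (1.03, adjusted p = 0.0436) and the immediate early factor EGR1 (1.21, adjusted p = 0.0205) passed and were higher in fusion tumors, in a comparison of 3 against 2. DUSP6 did not pass there. Vector tumor 1 was the highest vector tumor for DUSP5 and EGR1 but the lowest for DUSP6 (8.16, against 8.86 and 9.22). Leaving it out therefore makes the DUSP6 difference smaller. EGR1 was chosen after its values were seen, and with all 6 tumors it had 0.53 (adjusted p = 0.963).

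**Figure D5:**
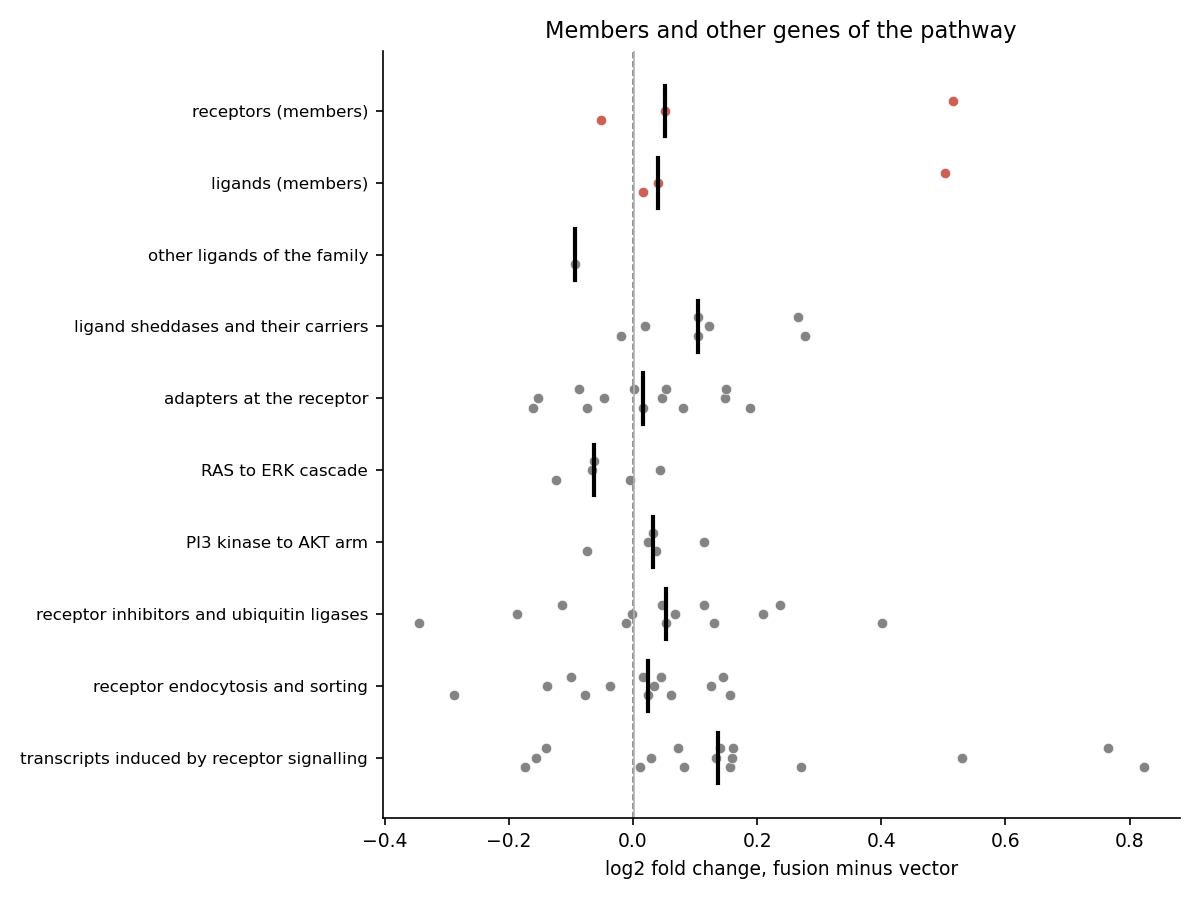
Log2 fold change, fusion minus vector (x axis), of each tested gene in 10 lists (y axis), with members in red, other pathway genes in grey and each list's median as a black bar. The grey line beside 0 is the median of all genes tested, 0.0020. EGFR and HBEGF lie near 0.5 apart from the other members, and DUSP5 and DUSP6 are farthest to the right.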

How the data were processed

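Total RNA of 6 xenograft tumors was hybridised to an array each, with biotin labelling by Affymetrix procedures per the labels' protocols. The authors deposited log2 probe set levels, a scale read here from the values. How they corrected background, normalized and summarised is not given in the sources used here, and no detection call was used. Names came from the platform annotation. Of 49293 probe sets, 44988 named 1 gene, 1832 several, and 2473 were unnamed here.

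In the gene fit, each of 18132 genes was read from its brightest probe set by mean. Genes whose mean fell under a dim filter (log2 4.94, the 30th percentile over all sets) were dropped, leaving 13694. A second fit took all probe sets, unfiltered. Both used limma 3.58.1 under R 4.3.3 (two-sided, moderated by eBayes) with Benjamini-Hochberg adjustment across the whole table and a threshold of 0.05. The gene fit, but not the probe set fit, was tested on simulated data. Single genes also had an exact permutation test over tumors. Deviations from the group means correlated at 0.097, 0.17 and 0.051 between same-numbered tumors, and at -0.14 to -0.018 between tumors of different number. Whether the numbers pair the tumors is not known here. The main fit did not pair them, and a fit with the number as a block is given below. All members were named, with up to 4 tested genes of smallest p from each other list, and 3 nearest patterns each for EGFR and HBEGF. ADAM17, DUSP4, IER3, VEGFA, SPRY2 and SPRY4 were named besides these because their values were below or near 0. Markers were named as examples of their lists. Members and lists were chosen with earlier results of these data known. Promoter windows came from RefSeq (GRCh38.p14). Reading used the package data.table (version 1.17.8), and plotting used matplotlib 3.10.9 (Python 3.11.15).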

Additional observations from a re-analysis of the deposited data

How the results depend on the processing

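No member gene and no member probe set passed by limma under any setting run. The EGFR log2 fold change stayed above 0, from 0.31 to 0.65 (adjusted p 0.283 to 1.00), as did that of HBEGF, from 0.14 to 0.89 (0.156 to 1.00). That of ERBB2 stayed below 0. Leaving out each tumor in turn, the log2 fold change ran from 0.33 to 0.61 for EGFR, -0.075 to 0.13 for ERBB3, -0.22 to 0.24 for NRG1, -0.079 to 0.10 for TGFA and -0.14 to 0.76 for HBEGF set 11755981_a_at. TGFA was also -0.0012 with quantile normalization and -0.013 with median centring. The number of genes called, 10 with all tumors, was 1 with the filter at the 50th percentile, 16 with the mean of probe sets, 6 with the most variable probe set, 140 with array weights, and 0 to 37 when leaving out each tumor (0 without fusion tumor 1, 37 without vector tumor 1). The number of probe sets called, 5, was 2 with the filter at the 50th percentile, 8 with quantile normalization, 11 with median centring, 79 with array weights, 8 with the replicate number as a block, and 0 to 15 when leaving out each tumor. The 50th percentile filter left 4 EGFR probe sets, all 4 above 0. Pathway genes called numbered 1 with array weights (DUSP5) and 0 to 2 when leaving out each tumor. With the replicate block, the adjusted p of EGFR was 0.512 and that of HBEGF 0.869, and no member passed. The causes of these differences were not tested, apart from fewer probe sets under the stricter filter. No detection calls were used, so the dim members ERBB4, EREG and BTC are limited by an unknown background.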

Other observations

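Genes beside EGFR and HBEGF on their chromosomes had small or negative log2 fold changes. Of the 10 protein-coding genes nearest to EGFR on chromosome 7, 5 on each side by RefSeq order, 4 were tested and 0 of them had a log2 fold change above 0. LANCL2 and VOPP1, the next genes on one side, were at -0.038 (SE 0.087) and -0.050 (SE 0.14) on this scale. On the other side COBL, an actin nucleator, had 7.28, 7.12 and 7.04 in fusion tumors, against 7.67, 7.51 and 7.29 in vector tumors (log2 fold change -0.34, limma adjusted p = 0.703). GRB10, an adapter that binds receptor kinases, had -0.45 (limma adjusted p = 0.797). Around HBEGF on chromosome 5, 6 of 10 neighbours were tested, with log2 fold changes from -0.30 to 0.067 and 2 above 0. By limma 0 neighbours passed, and 2 near EGFR and 0 near HBEGF had an unadjusted p below 0.05, where 5.89% of all genes did. These neighbours were looked up after the values of EGFR and HBEGF were seen.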
